A study of Homo sapiens with 4 samples.

Results

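Contacts of the cohesin subunit SMC1 on human chromosomes 16, 19 and 22 were described in Kelly, a neuroblastoma cell line, by 5 Mb bins of the genome build hg19. All anchors on these chromosomes, and all pairs of anchors within 1 of them, were taken. They numbered 3315 of 39507 anchors (8.39%) and 9817 of 147452 intrachromosomal pairs (6.66%). A further 86196 of 572597 interchromosomal pairs (15.1%) had an end on at least 1 of the 3 chromosomes. The shBORIS group consisted of 2 libraries of TAE684-resistant Kelly cells infected with a hairpin construct called shBORIS, and the shLUC group of 2 libraries of the same resistant cells infected with the control construct shLUC. Both groups were kept in 1 µM of the ALK inhibitor TAE684, infected for 24 h with 8 µg/ml polybrene and selected with puromycin for 48 h. All libraries come from the resistant derivative of 1 cell line. No library of parental cells was analysed here, and neither was the level of BORIS itself.

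In ChIA-PET, DNA fragments held by an immunoprecipitated protein are ligated to each other, and each ligated fragment is read from both ends as a paired-end tag (PET). An anchor is a region to which PET ends are assigned. Cohesin is a ring complex that extrudes chromatin into loops and is held up where the insulator protein CTCF is bound, so PETs of SMC1 often join CTCF sites. BORIS, or CTCFL, is a paralog of CTCF that is normally made in male germ cells and is found again in some cancers. Chromosomes 16, 19 and 22 are known as rich in genes for their length. Chromosome 19 also carries large clusters of zinc-finger genes, and chromosome 22 has a short arm of ribosomal and satellite DNA only. In interphase nuclei, gene-rich chromosomes are known to lie towards the interior.

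The authors deposited 1 table for each group, which pools its 2 libraries, so no value has a replicate error and intervals (95%) cover counting error only. The shBORIS table held 163041 intrachromosomal and 286938 interchromosomal PETs, and in shLUC these numbered 146140 and 288835. A scaled ratio is the shBORIS share of PETs over the shLUC share, each taken of its own table's total of that kind. The 3 chromosomes were chosen by their reputation for genes and by their intrachromosomal ratios between the groups, which were already known. The ratios and the numbers of features past a threshold are therefore descriptions, and nothing is read from their direction.

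Anchors were dense on chromosomes 19 and 22 but not on chromosome 16. Chromosome 19 had 1586 anchors, or 27.0 per Mb between its first and last anchor, and ranked 2 among 23 chromosomes. Chromosome 22 had 844, or 24.99 per Mb (rank 4), and chromosome 16 had 885, or 9.83 per Mb (rank 16). The density of genes itself could not be measured, since no gene positions of hg19 were at hand. By their anchors, only 19 and 22 stood with the dense chromosomes 17 (29.7 per Mb) and 20 (26.5 per Mb). Without its longest gap, chromosome 16 had 11.3 per Mb, against 8.18 and 9.20 on chromosomes 4 and 13, known as poor in genes. Neighbouring anchors lay a median of 14.98 kb apart on chromosome 19, 21.3 kb on chromosome 22 and 30.9 kb on chromosome 16, against 58.9 kb on chromosome 4 and 49.5 kb on chromosome 13. Broad anchors of 3 kb or more made up 0.483% of those on the 3 chromosomes, against 2.21% on the other 20. Single chromosomes of the other 20 ran from 0.163% on X and 0.448% on chromosome 8 to 5.71% on chromosome 9.

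The longest stretch without an anchor lay at 34667291-46385734 on chromosome 16, an 11.7 Mb gap that holds the centromere. On chromosome 19 it measured 3.51 Mb and also holds the centromere. All anchors of chromosome 22 were on its long arm, from 17397996 onwards. Of 5 Mb bins with an anchor, chromosome 16 had 17 with 3 to 172 anchors, chromosome 19 had 12 with 10 to 239, and chromosome 22 had 8 with 40 to 152. The densest bin of chromosome 16, its first 5 Mb, had 172 anchors where its median bin had 45. The bins with the most anchors on the others were 0 to 5 Mb of chromosome 19 with 239 and 20 to 25 Mb of chromosome 22 with 152. The sparsest bins of 10 or more anchors were 75 to 80 Mb on chromosome 16 with 17, 20 to 25 Mb on chromosome 19 with 10, and 50 to 55 Mb on chromosome 22, where the chromosome ends, with 40.

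Chromosome 19 held 5963 intrachromosomal PETs in shBORIS and 4791 in shLUC. Chromosome 22 held 3271 in shBORIS and 2803 in shLUC, and chromosome 16 held 2161 in shBORIS and 1756 in shLUC. Per anchor this was 3.76 and 3.02 PETs on chromosome 19, 3.88 and 3.32 on chromosome 22, and 2.44 and 1.98 on chromosome 16, with shBORIS given first. The 3 chromosomes thus lay in the middle or the lower part of the order. In shLUC, chromosome 22 ranked 11 of 23, chromosome 19 ranked 15 and chromosome 16 ranked 22. Chromosome 20, with nearly the anchor density of 19, had 5.96 PETs per anchor in shBORIS and 5.11 in shLUC, and chromosome 17 had 6.94 and 5.86. Dense anchors on 19 and 22 were not accompanied by as many contacts per anchor as on 17 and 20 in either table.

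**Figure D1:**
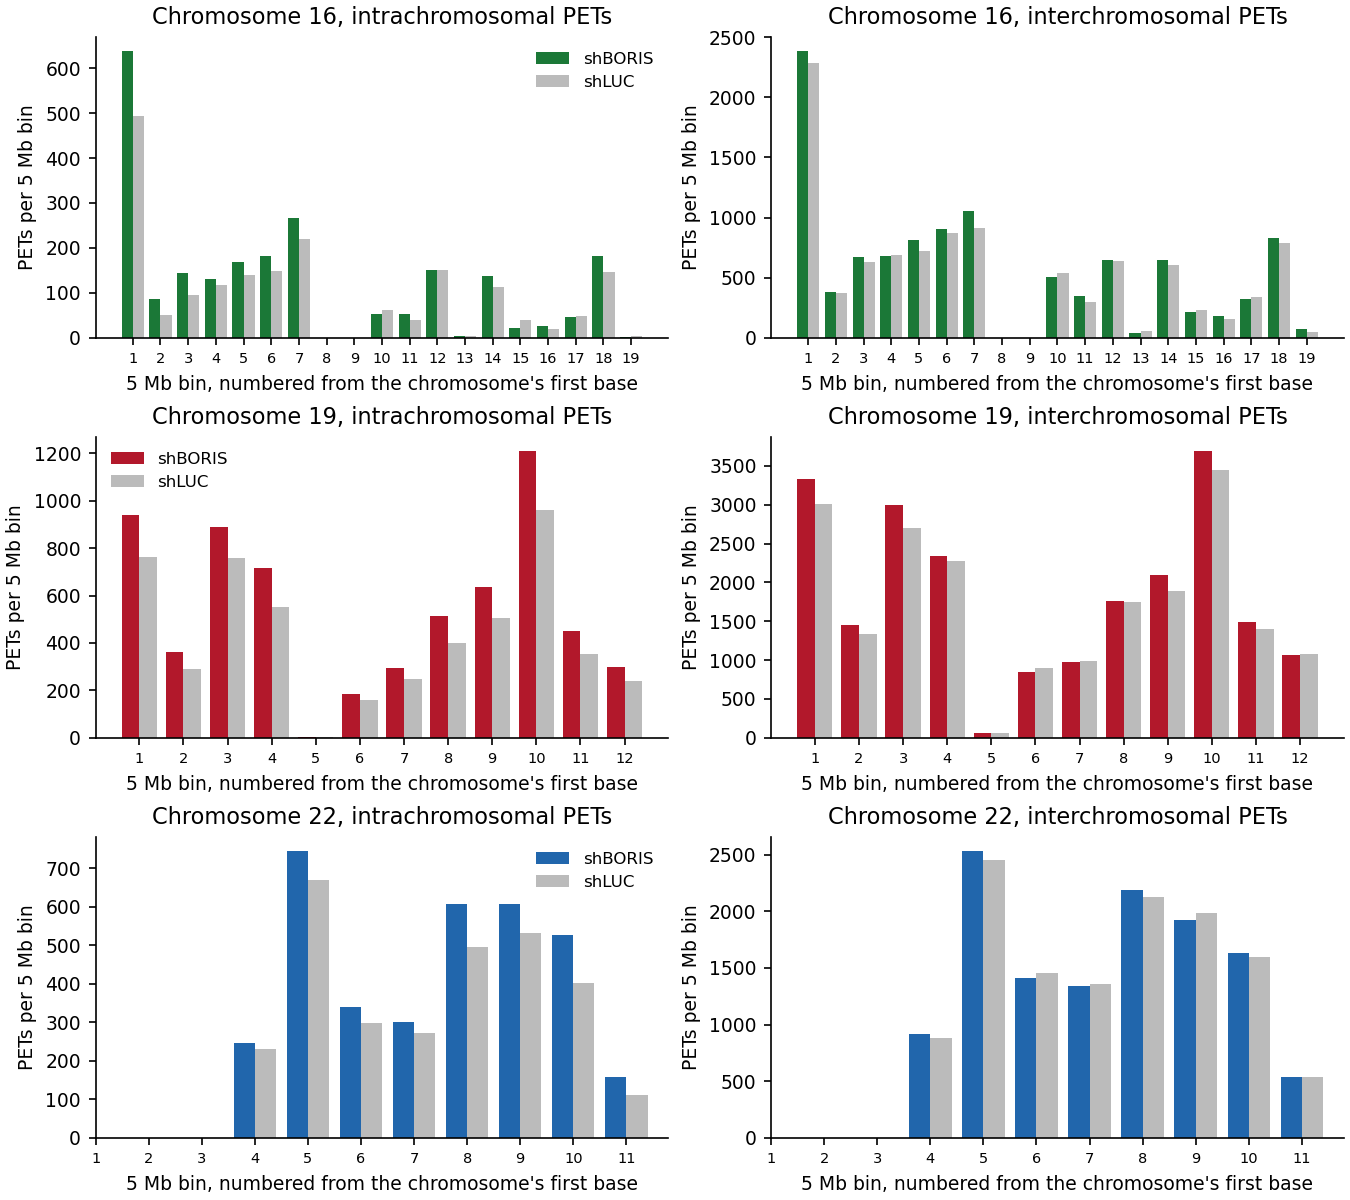
PETs in each 5 Mb bin of chromosomes 16, 19 and 22, intrachromosomal on the left and interchromosomal on the right, as counted in the pooled shBORIS table (coloured bars) and the pooled shLUC table (grey bars). Bins are numbered along the chromosome, a PET counts once in every bin that holds one of its ends, and the profiles of the tables follow each other, with the highest bin of chromosome 19 at 1209 intrachromosomal PETs in shBORIS and 961 in shLUC.

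Within chromosome 16, PETs were concentrated on the short arm. Its first 5 Mb held 638 intrachromosomal PETs in shBORIS and 493 in shLUC, the most of any bin of this chromosome. The next, 30 to 35 Mb, held 266 in shBORIS and 220 in shLUC. From 5 to 30 Mb, the bins held 87 to 182 in shBORIS and 51 to 149 in shLUC. On the long arm the fullest bins were 85 to 90 Mb, with 183 in shBORIS and 147 in shLUC, and 55 to 60 Mb, with 151 in shBORIS and 150 in shLUC. Between 60 and 65 Mb, where only 7 anchors lie, there were 4 PETs in each table. The short arm had 14.8 anchors per Mb and the long arm 8.55.

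Of the 17 bins of chromosome 16, 11 had at least 100 intrachromosomal PETs over both tables. Their scaled ratios ran from 0.754 to 1.53, 9 of them above 1, where 38.8% of 469 such bins of the genome were. Among those 469 bins the interval left out 1 in 36 above it and 76 below. On chromosome 16 it did so in 3 bins, all above, that follow each other. These were 0 to 5 Mb at 1.16 (1.03 to 1.31), 5 to 10 Mb at 1.53 (1.07 to 2.20), with 87 PETs in shBORIS and 51 in shLUC, and 10 to 15 Mb at 1.36 (1.04 to 1.78), with 144 in shBORIS and 95 in shLUC. The lowest of the 11 was 45 to 50 Mb, the first of the long arm, at 0.754 (0.513 to 1.10), with 53 PETs in shBORIS and 63 in shLUC. Below the minimum of 100 PETs, the bin of 70 to 75 Mb had 21 in shBORIS and 39 in shLUC, with a ratio of 0.483 (0.270 to 0.841), the only bin of the 3 chromosomes with an interval below 1. By arm, the ratio was 1.17 (1.08 to 1.26) on the short arm, with 1496 PETs in shBORIS and 1147 in shLUC. On the long arm it was 0.993 (0.885 to 1.11), with 628 in shBORIS and 567 in shLUC. The whole chromosome had 1.10, the interval of the long arm included 1, and the intervals of the arms overlapped. Across the centromere there were 37 PETs in shBORIS and 42 in shLUC and no called interaction.

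The fullest bin of chromosome 19, 45 to 50 Mb, held 1209 intrachromosomal PETs in shBORIS and 961 in shLUC, followed by 0 to 5 Mb with 940 in shBORIS and 763 in shLUC. The bin of 10 to 15 Mb held 890 in shBORIS and 760 in shLUC, and that of 15 to 20 Mb 717 and 551. Only 20 to 25 Mb, before the centromere, was nearly empty, with 5 PETs in shBORIS and 2 in shLUC on 10 anchors. The other 11 bins had scaled ratios from 1.04 to 1.17, all above 1, a narrower range than on chromosome 16, whose bins hold fewer PETs. Among the 10 bins of 500 or more PETs the highest was 15 to 20 Mb, at 1.17 (1.04 to 1.31), and the lowest 10 to 15 Mb, at 1.05 (0.952 to 1.16). In 5 of the 11 bins the interval left out 1, all above it, where over the genome it did so in 36 of 469 such bins above and 76 below. The ratio was 1.10 (1.04 to 1.17) on the short arm and 1.13 (1.07 to 1.19) on the long arm, so the arms differed by less than their intervals.

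On chromosome 22 the fullest bin was 20 to 25 Mb, with 744 intrachromosomal PETs in shBORIS and 669 in shLUC and a scaled ratio of 0.997 (0.897 to 1.11). The bins of 35 to 40 Mb and 40 to 45 Mb followed, with 607 and 606 PETs in shBORIS and 495 and 531 in shLUC. Ratios from 15 to 35 Mb lay between 0.963 and 1.02, and all 4 of those intervals included 1. Towards the end of the chromosome they were higher. At 45 to 50 Mb the ratio was 1.18 (1.03 to 1.34), with 527 PETs in shBORIS and 401 in shLUC, and at 50 to 55 Mb it was 1.27 (0.988 to 1.63), with 157 in shBORIS and 111 in shLUC. The bin with the lowest ratio among the 6 of at least 500 PETs was 30 to 35 Mb, at 0.985 (0.833 to 1.16).

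**Figure D2:**
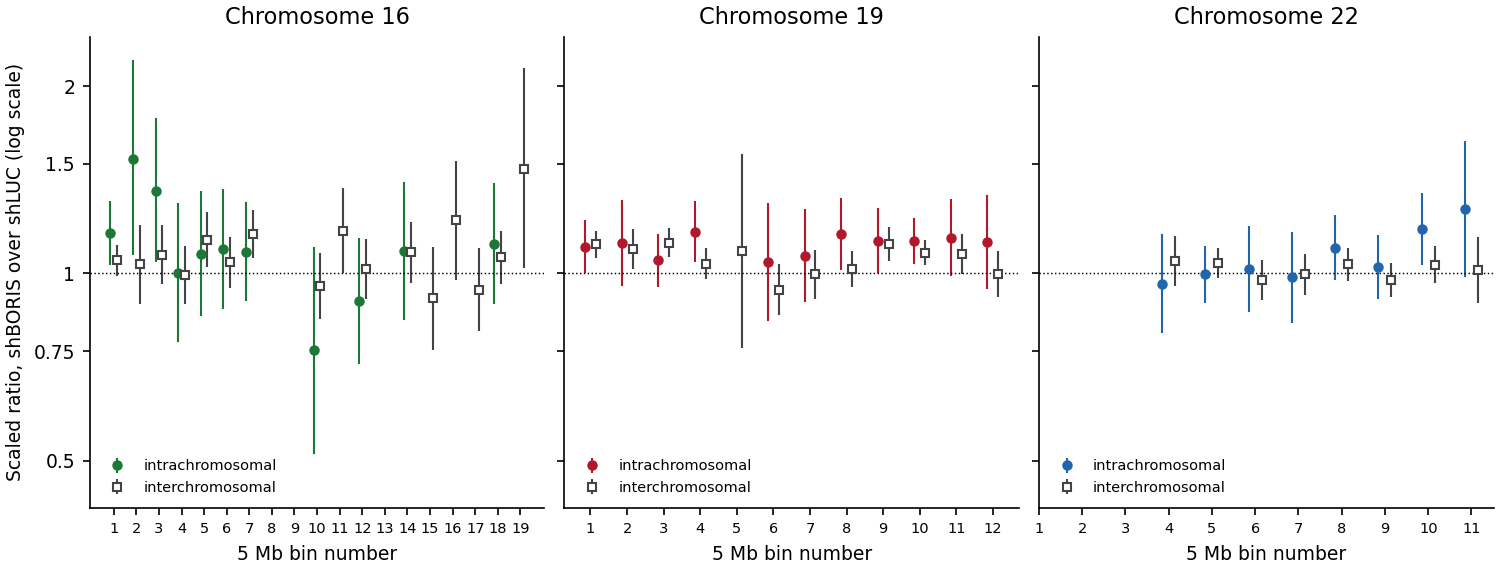
Scaled ratio of shBORIS over shLUC PETs (log axis) in each 5 Mb bin with at least 100 PETs over both tables, for intrachromosomal PETs (filled circles) and interchromosomal PETs (open squares). Bars are exact 95% intervals for counting error. On chromosome 19 all 11 filled circles lie above 1, on chromosome 16 they range from 0.754 to 1.53, and on chromosome 22 they are highest in the last 2 bins.

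Each bin was also tested against the rest of its table with Fisher's exact test, adjusted by Benjamini-Hochberg over all bins of the genome. The test compares the 2 pools and not the conditions. For intrachromosomal PETs, 0 of 30 bins on the 3 chromosomes passed, against 6.61% of all 469 bins, or 1.07% with a higher shBORIS value alone, and 9 of 30 had an unadjusted p under 0.05, against 24.3%. For interchromosomal PETs, 5 of 36 bins passed, all higher in shBORIS, against 2.78% of all 576 bins, or 1.74% with a higher shBORIS value alone. These were 0 to 5 Mb of chromosome 19, with 3330 PETs in shBORIS and 3010 in shLUC, 10 to 15 Mb with 3002 and 2697, 40 to 45 Mb with 2100 and 1896, 45 to 50 Mb with 3691 and 3443, and 30 to 35 Mb of chromosome 16 with 1053 and 917. Their scaled ratios were between 1.08 and 1.16. A scaled ratio above 1 was found in 26 of the 36 bins, against 42.5%, and ranged from 0.912 to 1.47 on chromosome 16, from 0.942 to 1.12 on chromosome 19 and from 0.975 to 1.05 on chromosome 22. With bins of 2.5 Mb, 2 of 48 bins passed for intrachromosomal PETs, against 29 of 703 over the genome in either direction. With bins of 10 Mb, 2 of 19 passed, against 51 of 279, and with pairs placed by their middle 1 of 31 did, against 34 of 480.

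Interchromosomal PETs have ends on 2 chromosomes and cannot be loops within 1. With each kind scaled to its own total, their ratios lay on the same side of 1 as those of the contacts within the chromosomes. Scaled to all PETs of both kinds, chromosome 22 had them on opposite sides, with 0.974 (0.9503 to 0.999) for interchromosomal and 1.13 (1.07 to 1.19) for intrachromosomal PETs. By that scaling the interchromosomal ratio was 1.02 (0.988 to 1.04) on chromosome 16 and 1.01 (0.993 to 1.02) on the 3 together, so both intervals included 1. On chromosome 19 it was 1.03 (1.01 to 1.05). The size of the interchromosomal ratios thus depends on the scaling. With each kind scaled to its own total again, chromosome 19 had 22127 interchromosomal PETs in shBORIS and 20828 in shLUC. This was a scaled ratio of 1.07 (1.05 to 1.09), beside 1.12 (1.07 to 1.16) for intrachromosomal PETs. On chromosome 16 there were 10706 in shBORIS and 10194 in shLUC, with a ratio of 1.06 (1.03 to 1.09) beside 1.10 (1.04 to 1.18). On chromosome 22 there were 12491 in shBORIS and 12393 in shLUC, with a ratio of 1.01 (0.990 to 1.04) beside 1.05 (0.994 to 1.10). The intrachromosomal ratio divided by the interchromosomal one was 1.04 (0.974 to 1.12) on chromosome 16, 1.04 (1.000 to 1.09) on chromosome 19 and 1.03 (0.975 to 1.09) on chromosome 22, with normal intervals on the log scale. For each chromosome alone the interval of this quotient included 1. Summed over the 3 the quotient was 1.04 (1.01 to 1.07), and on the other 20 it was 0.994 (0.985 to 1.00). The interchromosomal PETs of the other 20 are all those with an end there. They were 285654 of 286938 in shBORIS and 287740 of 288835 in shLUC, and so include most of those of the 3 chromosomes. The quotients are therefore not independent, and that of the other 20 nearly equals their intrachromosomal ratio alone, also 0.994. The part that the amount of DNA captured from each chromosome had in these ratios was not tested.

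By bin, that quotient was above 1 in 21 of 30 bins of the 3 chromosomes, with a median of 1.05, and in 162 of 439 bins of the other 20, with a median of 0.956. Its interval left out 1 in 1 of the 30 bins of at least 100 PETs, 5 to 10 Mb of chromosome 16, at 1.48 (1.02 to 2.15), which holds 87 intrachromosomal PETs in shBORIS and 51 in shLUC on 33 anchors. On the other 20 chromosomes it left out 1 in 44 of 439 bins, 5 above and 39 below.

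**Figure D3:**
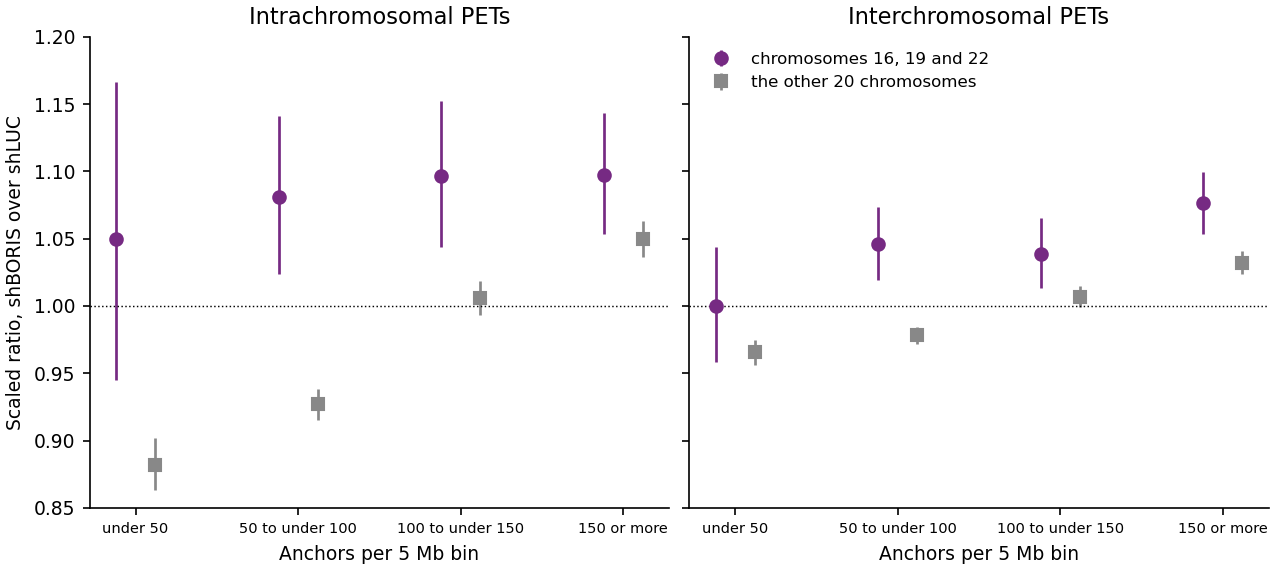
Scaled ratio of shBORIS over shLUC PETs against the number of anchors in a 5 Mb bin, summed over the bins of each class, on chromosomes 16, 19 and 22 (circles) and on the other 20 chromosomes (squares). Bars are exact 95% intervals for counting error. For intrachromosomal PETs the squares climb from 0.882 to 1.05, and the circles lie between 1.05 and 1.10 in every class. For interchromosomal PETs the squares climb from 0.965 to 1.03, and the circles lie between 1.00 and 1.08.

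Because anchor-dense bins differed from sparse ones over the whole genome, bins were also compared at similar anchor numbers, with limits chosen after the data were seen. On the other 20 chromosomes the summed intrachromosomal ratio was 0.882 (0.863 to 0.902) in bins of under 50 anchors, 0.927 (0.916 to 0.938) at 50 to under 100, 1.01 (0.993 to 1.02) at 100 to under 150 and 1.05 (1.04 to 1.06) at 150 or more. On chromosomes 16, 19 and 22 the same classes gave 1.05 (0.945 to 1.17), 1.08 (1.02 to 1.14), 1.10 (1.04 to 1.15) and 1.10 (1.05 to 1.14). Since these ratios chose the chromosomes, the 2 sets of values stand side by side as a description. The sparse bins were mostly those of chromosome 16. At 150 or more anchors, where chromosome 19 has 4 bins and the other 2 chromosomes 1 each, the intervals overlapped. Interchromosomal ratios on the 3 chromosomes were 1.00 (0.958 to 1.04), 1.05 (1.02 to 1.07), 1.04 (1.01 to 1.07) and 1.08 (1.05 to 1.10), against 0.965, 0.978, 1.01 and 1.03 on the others.

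Contacts on these chromosomes were short beside the pool of the other 20. Only chromosome 19 had a median span below that of each of the 20. The median span of intrachromosomal PETs was 61.4 kb in shBORIS and 64.4 kb in shLUC on chromosome 19, the shortest of 23 chromosomes in both tables. On chromosome 16 it was 75.4 kb in shBORIS and 84.3 kb in shLUC (rank 20 from the longest in both), and on chromosome 22 it was 88.0 kb and 88.4 kb (ranks 17 and 19). The other 20 chromosomes together had medians of 105 kb and 116 kb, and chromosomes 4 and 13 had 145 kb and 165 kb in shBORIS and 168 kb and 173 kb in shLUC. Within chromosome 19, bins rich in anchors had short contacts, such as 50.6 kb in shBORIS and 49.7 kb in shLUC at 45 to 50 Mb with 236 anchors. At 30 to 35 Mb, with 70 anchors, the median was 241 kb in both tables. Chromosome 16 had 43.5 kb in shBORIS and 42.3 kb in shLUC in its first 5 Mb, but 284 kb in both at 15 to 20 Mb. Over the 30 bins, Spearman's rho between anchors and median span was -0.55 in shBORIS and -0.68 in shLUC, and within chromosome 22 alone, over 8 bins, it was 0.071 and -0.31. These are descriptions only, since bins share libraries and neighbouring bins share PETs.

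Where anchors lie close together, short spans follow in part from the anchor positions, so PETs were also divided by the number of possible anchor pairs in each span class. Under 20 kb, chromosome 19 had 953 PETs per 1000 possible pairs in shBORIS and 732 in shLUC, chromosome 22 had 1125 and 941, and chromosome 16 had 858 and 670. The other 20 chromosomes had 1279 and 1062. At 20 to 100 kb the 3 chromosomes, with 470 to 528 in shBORIS and 366 to 454 in shLUC, were nearer to the others, with 539 and 472.

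In relative terms chromosome 19 lay farthest below the others between 500 kb and 2 Mb. There it had 1.78 PETs per 1000 possible pairs in shBORIS and 1.67 in shLUC, against 8.95 and 8.43 on the other 20 and 7.54 and 6.18 on chromosome 20. Chromosome 16 had 4.13 in shBORIS and 4.44 in shLUC, and chromosome 22 had 5.44 and 3.93. Chromosome 17 had 4.19 and 3.83. In this class chromosome 19 therefore had few contacts per anchor pair even beside chromosomes of like anchor density, in both tables. Above 2 Mb it had 0.382 in shBORIS and 0.316 in shLUC, against 0.449 and 0.457 on the other 20 and 0.215 and 0.212 on chromosome 16.

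**Figure D4:**
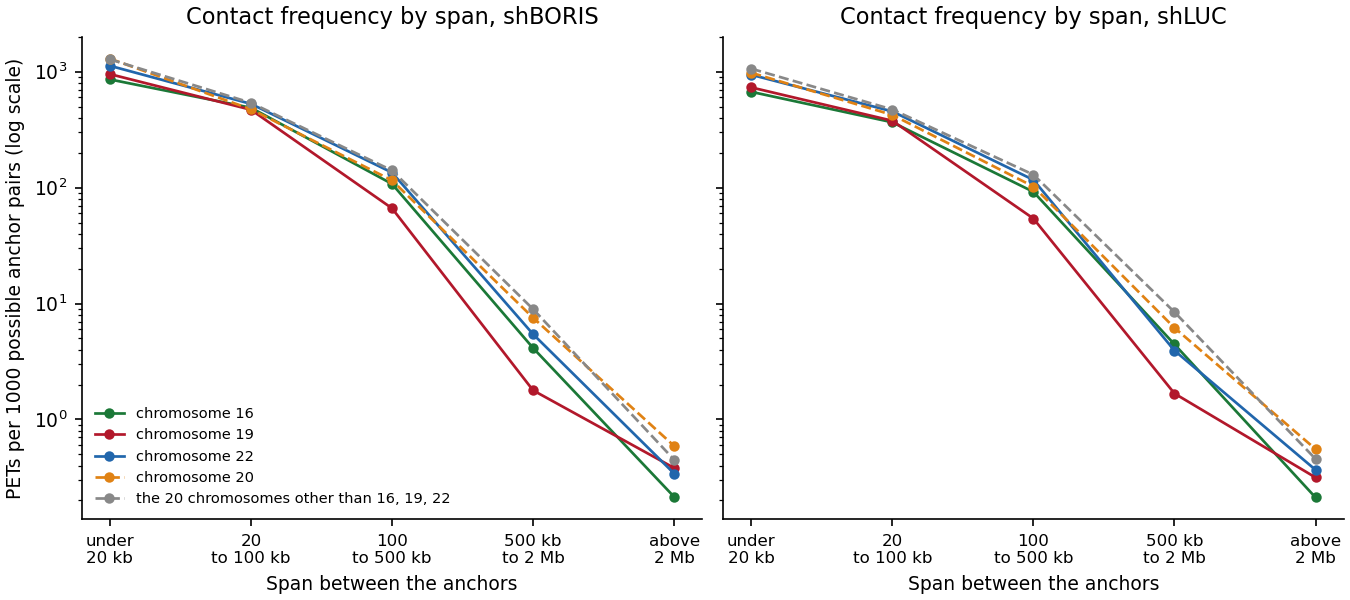
Intrachromosomal PETs per 1000 possible anchor pairs (log axis) by the span between the anchors, in shBORIS on the left and shLUC on the right, for chromosomes 16, 19 and 22, chromosome 20 and the sum of the 20 chromosomes other than 16, 19 and 22. The line of chromosome 19 is the lowest from 100 kb to 2 Mb, at 1.78 in shBORIS and 1.67 in shLUC between 500 kb and 2 Mb.

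By span, the scaled ratio on the 3 chromosomes together was 1.14 (1.07 to 1.21) under 20 kb, with 2445 PETs in shBORIS and 1929 in shLUC. It was 1.11 (1.06 to 1.16) at 20 to 100 kb, with 4430 and 3579 PETs, and 1.07 (1.02 to 1.12) at 100 to 500 kb, with 3514 and 2954. From 500 kb to 2 Mb it was 1.03 (0.886 to 1.20) and above 2 Mb 1.01 (0.897 to 1.13), where counting error is large. On the other 20 chromosomes the ratios in the same order were 1.08, 1.02, 0.975, 0.951 and 0.882. Both sets had their highest value at the shortest spans. On the other 20, the intervals of the 3 classes above 100 kb lay below 1. Of single chromosomes, 16 had its highest ratio, 1.20 (1.08 to 1.33), at 20 to 100 kb, with 810 PETs in shBORIS and 607 in shLUC. Chromosome 19 had its highest, 1.17, under 20 kb, and chromosome 22 its highest, 1.24 (0.978 to 1.58), at 500 kb to 2 Mb, with 169 PETs in shBORIS and 122 in shLUC.

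An interaction was called on 3 or more PETs together with a Bayes probability, which the authors deposited, of 0.9 or more. On the 3 chromosomes 972 were called in shBORIS and 760 in shLUC. Of these, 420 were called in both, 552 in shBORIS alone and 340 in shLUC alone. With the deeper shBORIS table thinned at random to the intrachromosomal total of shLUC, 844.5 were called in shBORIS (median of the draws, with the deposited probabilities kept), 454.5 in shBORIS alone and 370.5 in shLUC alone. The share called in both was 43.2% of the shBORIS calls (40.1 to 46.4), against 48.3% on the other 20 chromosomes (47.5 to 49.2), and 55.3% of the shLUC calls (51.6 to 58.8), against 56.0%. Calls resting on few PETs were shared least. Of 415 shBORIS calls with 3 PETs, shLUC had 102 as well, whereas it had 62 of the 64 shBORIS calls at 10 to 19 PETs and all 5 above that. The shares at 3 PETs and at 10 to 19 PETs were 24.6% and 96.9%, against 25.6% and 94.4% on the other 20. In between they were lower than on the other 20, with intervals that overlapped. At 4 PETs the share was 34.5% (27.9 to 41.6), against 41.2% (39.3 to 43.2). At 5 to 9 PETs it was 62.9% (57.1 to 68.5), against 66.9% (65.4 to 68.4). Of the 552 called in shBORIS alone, 358 were listed in shLUC with 1 PET or more, and of the 340 called in shLUC alone, 229 were so listed in shBORIS. On the other 20 chromosomes these were 4266 of 6268 and 3263 of 4604. Here as there, most calls made in 1 table alone were thus pairs that the other table also listed.

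Per 100 anchors, chromosome 22 had 33.2 calls in shBORIS and 27.8 in shLUC, chromosome 19 had 31.6 and 24.9, and chromosome 16 had 21.6 and 14.7. The other 20 chromosomes together had 33.6 and 29.0, and chromosome 17, which ranked 1 of 23 in both tables, had 54.9 and 46.8. At least 1 call was found at 41.6% of anchors in shBORIS and 35.1% in shLUC on chromosome 19, at 41.1% and 36.8% on chromosome 22, and at 32.1% and 23.4% on chromosome 16. On the other 20 chromosomes this was 36.4% and 34.5%. Anchors with 5 or more calls were rare. There were 5 in shBORIS and 2 in shLUC on chromosome 19, 8 and 6 on chromosome 22 and 0 in both tables on chromosome 16, where the most at 1 anchor was 4 calls in shBORIS and 3 in shLUC. Together these were 13 and 8 of 3315 anchors, against 731 and 467 of 36151 on the other 20. Among the other 20, chromosomes 13, 18, 21 and X also had 0 in both tables, and chromosome 17 had 125 and 90. A called interaction passed over a median of 1 anchor on each of the 3 chromosomes in both tables, and 39.3% of those in shBORIS and 36.8% in shLUC joined neighbours, against 34.4% and 33.8% on the other 20.

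The strongest interactions of the 3 chromosomes were on chromosome 22. The anchors at 49471107-49473824 and 49545178-49549439 were joined by 33 PETs in shBORIS and 22 in shLUC across 74.8 kb. Those at 19957464-19959356 and 19999967-20001894 were joined by 29 and 20 PETs, and those at 23300730-23302398 and 23469839-23471545, neighbours 169 kb apart, by 26 and 15. On chromosome 19, 18048547-18049949 contacted 18107010-18108511 with 24 PETs in shBORIS and 15 in shLUC, and 29776297-29778790 contacted 30016788-30020224 across 241 kb with 15 and 17. A further pair there, 17980631-17982008 and 18042694-18044406, had 18 and 16. Chromosome 16 had weaker ones, led by 4408562-4410036 with 4452076-4453531, at 18 PETs in shBORIS and 15 in shLUC. The pair 115132-116605 and 146358-147711 had 13 and 15, and 30797421-30799262 with 30816281-30817672 had 12 and 16. All 9 had a scaled ratio, between 0.672 and 1.55, whose interval included 1.

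Called interactions also joined anchors into clusters, taken as anchors linked by calls in a chain. The largest cluster had 18 anchors in shBORIS (46783621-47166254) and 8 in shLUC (4524804-4637072) on chromosome 19. On chromosome 22 it had 13 in shBORIS (23151930-23633362) and 10 in shLUC (42564411-42841381), and on chromosome 16 it had 11 (4032490-4455171) and 6 (2389585-2552203). On chromosome 17 it had 134 and 69, the most of any chromosome. On chromosomes 4 and 13 it had 16 and 6 anchors in shBORIS and 15 and 7 in shLUC. The longest interactions called in both tables, named after their values were seen, spanned 721 kb on chromosome 16 with 3 PETs in each table, 633 kb on chromosome 22 with 8 in shBORIS and 4 in shLUC, and 368 kb on chromosome 19 with 8 and 3.

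Of the interactions called in 1 table alone, those with the largest difference were small counts. In shBORIS alone, 50935511-50936788 and 50937475-50938954 of chromosome 19 were joined by 10 PETs, against 1 in shLUC (scaled ratio 8.96, interval 1.28 to 389). On chromosome 22, 49441605-49443346 contacted 49471107-49473824 with 9 PETs in shBORIS and 1 in shLUC (scaled ratio 8.07, interval 1.12 to 354). On chromosome 16, 85453808-85455177 contacted 85481732-85483492 with 7 in shBORIS and 0 in shLUC, with a lower limit of 1.29. In shLUC alone, the pair 56998108-56999149 and 57079563-57080260 of chromosome 16 had 1 PET in shBORIS and 8 in shLUC. On chromosome 19, 17969821-17971173 and 18042694-18044406 also had 1 and 8, and on chromosome 22, 34316652-34318861 and 34319305-34320461 had 2 and 9. Of 9817 pairs, 230 had the 10 PETs needed for Fisher's exact test, and 0 passed, against 0.0506% of all 3951 pairs tested, while 6 of 230 had an unadjusted p under 0.05, against 5.69%. A ratio of 2 or more was found for 17.8% of the 230 and 14.2% of all tested pairs, and one of 0.5 or less for 10.4% and 11.8%.

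Among anchors, the most intrachromosomal PETs on chromosome 22 were at 49545178-49549439, with 67 in shBORIS and 56 in shLUC, and at 49471107-49473824, with 69 and 34, the ends of its strongest interaction. The scaled ratio of the second was 1.82 (1.19 to 2.83), and its interchromosomal PETs numbered 61 in shBORIS and 45 in shLUC. On chromosome 19, 13261888-13268079, an anchor of 6192 bp, had 50 in shBORIS and 35 in shLUC, and 47164239-47166254 had 42 in each table and 5 calls in each. On chromosome 16, 4452076-4453531 had 37 in shBORIS and 32 in shLUC, and 4379843-4381107 had 43 and 25. The ratios of these 4 had intervals that included 1. The most calls on chromosome 22, 7 in shBORIS and 5 in shLUC, were at 42832349-42834562, named after its values were seen, which had 65 intrachromosomal PETs in shBORIS and 36 in shLUC, but 44 and 63 interchromosomal ones. Of 1548 anchors with at least 10 intrachromosomal PETs, 0 passed Fisher's exact test over the genome, against 0.0204% of 19623, and 5.36% had an unadjusted p under 0.05, against 6.43%. A ratio of 2 or more was found at 14.0% of them, against 9.67%, and one of 0.5 or less at 7.30%, against 9.51%. Of 3000 anchors with at least 10 interchromosomal PETs, 1 passed, against 0.014% of 35637, and 5.10% had an unadjusted p under 0.05, against 5.56%. A ratio of 2 or more was found at 9.70%, against 7.3%, and one of 0.5 or less at 5.07%, against 6.82%. The anchor that passed was 11319089-11322802 on chromosome 19, with 73 in shBORIS and 28 in shLUC, and it had 8 and 5 intrachromosomal PETs. Without it, the interchromosomal ratio of its bin, 10 to 15 Mb, was 1.10 (1.05 to 1.16) in place of 1.12.

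PETs between the 3 chromosomes were compared with the number expected from each chromosome's total of interchromosomal ends. Chromosomes 16 and 22 were joined by 244 PETs in shBORIS and 183 in shLUC, which was 1.07 times (0.941 to 1.21) and 0.857 times (0.738 to 0.991) the expected number. Chromosomes 19 and 22 were joined by 491 and 406, or 1.02 times (0.934 to 1.12) and 0.914 times (0.827 to 1.01). Chromosomes 16 and 19 were joined by 398 and 363, or 0.970 times (0.877 to 1.07) and 0.997 times (0.897 to 1.10). In neither table did the 3 chromosomes have an excess of PETs with each other beyond counting error. Among 253 chromosome pairs, 16 with 22 ranked 17 in shBORIS and 251 in shLUC, 19 with 22 ranked 66 and 244, and 16 with 19 ranked 202 and 132. The tables differed most for chromosomes 16 and 22, and the value of that pair in shLUC was the only one of the 6 whose interval left out 1. Over all 253 pairs the interval left out 1 in 13 above it and 7 below in shBORIS. In shLUC it did so in 5 above and 6 below. Values over all pairs ran from 0.797 to 1.22 in shBORIS and from 0.830 to 1.25 in shLUC, around medians of 0.998 in both.

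**Figure D5:**
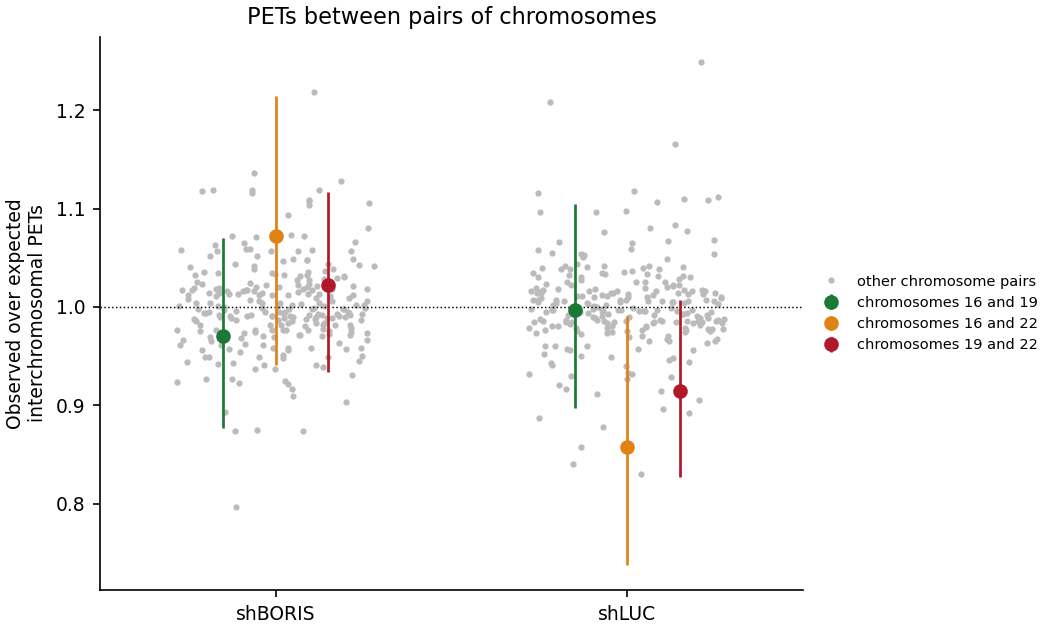
Observed over expected interchromosomal PETs for 253 pairs of chromosomes in shBORIS (left) and shLUC (right). Coloured points with exact 95% Poisson intervals are the pairs among chromosomes 16, 19 and 22, and grey points are the others, spread sideways at random. The coloured points lie between 0.970 and 1.07 in shBORIS and between 0.857 and 0.997 in shLUC.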

How the data were processed

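SMC1 ChIA-PET libraries of resistant Kelly cells were read from 1 table per group, which both libraries of the group name in their labels. Cutadapt 1.8, Bowtie and the build hg19 were used, per the submitters' processing notes. Which program defined and scored the pairs is not given in the sources used here. Deposited values are the PET count of each anchor pair, unnormalized, the authors' p-value per pair, per the file headers, which was not used, and the Bayes probability, a fraction from 0 to 1, per the file headers. The shBORIS table lacks a header, so the header of the other table was applied to it. Printed starts count from 1.

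An anchor was placed by its middle. An intrachromosomal PET counted once in every 5 Mb bin that holds an end. Fisher's exact test (two-sided, threshold 0.05, Benjamini-Hochberg over the genome) used bins with at least 100 PETs and anchors and pairs with at least 10. Ratio intervals are exact 95% Clopper-Pearson intervals. Without molecular identifiers, PCR copies are not independent molecules. Expected PETs between chromosomes were fitted to each chromosome's total. The scripts (Python 3.11.15, scipy 1.17.1) were tested on simulated data. Alternatives varied scaling, spans, bins, minimums, call rule and depth.

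The chromosomes and comparisons were chosen with earlier results of these data known. Named by rule were, per chromosome, the bins extreme in anchors or ratio, 3 shared interactions, the largest gain and loss, 2 anchors and all features past the threshold. No gene is named and no sequence shown, since no hg19 genome or gene positions were at hand.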

Additional observations from a re-analysis of the deposited data

How the results depend on the processing

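Alternatives gave 110 values for 35 results. Of these, 77 lay inside the counting interval or within 1.5 times the count, 33 did not, and no value whose interval left out 1 changed sides. Of values whose interval included 1, 3 changed sides: the interchromosomal ratio of chromosome 22 scaled to all PETs, and, with expected PETs from anchor numbers, chromosomes 16 and 22 and chromosomes 19 and 22 in shBORIS (0.943). Scaled to all PETs of both kinds, the intrachromosomal ratios were 1.19 on chromosome 16, 1.20 on 19, 1.13 on 22 and 1.18 on the 3, and the interchromosomal ones 1.02, 1.03, 0.974 and 1.01, since the share of intrachromosomal PETs differs between the tables. The interchromosomal intervals of chromosome 16 and of the 3 then included 1, which they left out with each kind scaled to its own total. On chromosome 19 the intrachromosomal ratio was 1.06 (0.999 to 1.12) on pairs called in either table and 1.07 without pairs of 1 PET in total; the cause was not tested. With at least 5 PETs, 360 interactions were called in shBORIS and 274 in shLUC, 158 in both, 116 in shLUC alone and 202 in shBORIS alone, as follows from the higher minimum. Bins past the threshold for intrachromosomal PETs, 0 of 30, became 2 of 48 at 2.5 Mb, 2 of 19 at 10 Mb and 1 of 31 with pairs placed by their middle. Over the genome these settings gave 29 of 703, 51 of 279 and 34 of 480. For interchromosomal PETs, 5 of 36 became 3 of 65 at 2.5 Mb, against 17 of 1063 over the genome. The cause was not tested. With expected PETs taken from anchor numbers, chromosomes 16 and 19 had 0.729 in shBORIS and 0.661 in shLUC, 16 and 22 had 0.840 and 0.626, and 19 and 22 had 0.775 in shLUC, which sets no total per chromosome. The median spans moved in 9 of 12 alternatives, to shorter values. No paired analysis was possible because the libraries of a group were pooled before deposit, which also barred leaving one out. Leaving out an anchor of chromosome 19 was chosen after seeing the data. Depth limits the values of single pairs.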

Other observations

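The anchor at 27731805-27734970 on chromosome 19, which borders its longest anchor-free stretch, had 305 interchromosomal PETs in shBORIS and 310 in shLUC, the most of any of the 39507 anchors summed over both tables. It carried 1.38% of the interchromosomal ends of chromosome 19 in shBORIS and 1.49% in shLUC, and the next anchor of that chromosome, 13261888-13268079, had 71 and 59. Its own intrachromosomal PETs numbered 21 in shBORIS and 14 in shLUC, with 0 and 1 called interactions. Both were singled out on these values.

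Of the 3315 anchors on chromosomes 16, 19 and 22, 3 occurred in 1 table only, and over the genome 39467 of 39507 anchors occurred in both, a like share. At 2290709-2291628 on chromosome 19 there were 13 PETs in shBORIS and 0 in shLUC, at 793604-794265 on chromosome 16 there were 10 in shBORIS and 0 in shLUC, and at 65017623-65018408 on chromosome 16 there were 0 in shBORIS and 7 in shLUC. A contig assigned to chromosome 19 but not placed on it had 2 anchors with 7 PETs in shBORIS and 13 in shLUC, a scaled ratio of 0.521 (0.176 to 1.40), and was left out of all comparisons.

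PETs were less concentrated on few anchors than on the other 20 chromosomes. The tenth of anchors with the most intrachromosomal ends held 34.1% of such ends on the 3 chromosomes in each table, against 41.5% in shBORIS and 39.9% in shLUC on the others. That pool mixes chromosomes with 1.55 (X) to 6.94 (17) intrachromosomal PETs per anchor in shBORIS, which by itself can raise the share. None of its chromosomes was measured alone. The share was 34.4% in shBORIS and 32.9% in shLUC on chromosome 16, 31.7% and 32.6% on 19, and 36.5% and 34.5% on 22. Anchors without any intrachromosomal PET made up 6.998% in shBORIS and 9.11% in shLUC, against 6.64% and 6.77%. By chromosome, they made up 12.1% in shBORIS and 14.1% in shLUC on 16, 5.17% and 7.38% on 19, and 5.09% and 7.11% on 22.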
